A study of Drosophila melanogaster with 11 samples.

Results

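The genes described are the translation factors and aminoacyl-tRNA synthetases of the adult Drosophila midgut progenitors. They were chosen by name, as every gene of the FPKM table whose name starts with eIF, Ef1, EF2 or Aats. This gave 53 of 14595 genes, of which 32 were translation factors and 21 were synthetases. Grouped by role, 3 belong to the eIF2 complex, 5 to eIF2B, 5 to eIF3, 9 to the eIF4 group and 6 to other initiation factors. A further 4 belong to elongation, 15 to the cytosolic synthetases and 6 to the mitochondrial synthetases. A synthetase was taken as mitochondrial if its name or its current symbol ends in -m. eIF-5A, now called eEF5 for its role in elongation, is counted with the other initiation factors because of its name. eIF4AIII is counted there too and not in the eIF4 group, despite its name. The rule does not catch genes named otherwise in the annotation, such as the elongation factor eEF2, which is listed as Ef2b.

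Initiation factors bring the initiator tRNA, the mRNA and the ribosomal subunits together. eIF2 carries the initiator tRNA, eIF2B recharges eIF2 with GTP, eIF3 is the scaffold on the small subunit, and the eIF4 group recognises the cap and unwinds the leader of the mRNA. Elongation factors deliver each charged tRNA to the ribosome, and each synthetase charges the tRNAs of an amino acid, with separate enzymes for the cytosol and for the mitochondria. In the midgut, intestinal stem cells (ISCs) divide to renew themselves and to produce enteroblasts (EBs), in which Notch is active and which mature into the absorptive enterocytes.

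The study asked what the loss of spen, a gene that encodes a large RNA-binding protein, does to ISCs and EBs. RNA was sequenced from cells sorted by FACS from whole midguts of adult females 5 days old. All groups carried esg>GAL4, tubGAL80.ts, UAS-RFP and nre-GFP, a Notch reporter, and all were shifted from 18°C to 29°C for 2 days. Diploid cells with RFP alone were taken as ISCs, and those with both RFP and GFP as EBs. SPEN-ISC (3 libraries) and SPEN-EB (3 libraries) also carried a UAS spen RNAi line, and WT-ISC (3 libraries) and WT-EB (2 libraries) were labelled as wild type. The esg driver is active in both cell types, so the RNAi was not restricted to one of them, and a single RNAi line was used. The labels call the libraries biological replicates, and whether each came from its own pool of guts is not given, so the p-values measure the spread between these libraries.

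The libraries held 28206027 to 31991452 counts on exon bins. The number of genes at 1 FPKM or more ran from 5858 to 6836 in SPEN-ISC, from 5106 to 6838 in WT-ISC, from 5437 to 6441 in SPEN-EB and was 4676 and 5021 in WT-EB. The 50 most abundant genes took 57.5 to 60.8% of the FPKM in SPEN-EB and 67.1 to 68.0% in WT-EB. Libraries were put on a common scale by a trimmed mean of log ratios before every test. Without this scaling, the median gene lies 0.66 higher on the log2 scale in SPEN-EB than in WT-EB, so directions are given relative to the median gene.

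The targeted gene, spen, was listed higher in the libraries labelled SPEN. Its level was 2.17, 1.61 and 5.04 FPKM in SPEN-ISC, against 0.255, 0.620 and 0.327 FPKM in WT-ISC, and 2.24, 0.920 and 0.936 FPKM in SPEN-EB, against 0.115 and 0.147 FPKM in WT-EB. Most of the difference in ISCs lay in the longest exon bin of spen, E014, with 1088, 613 and 2160 counts in SPEN-ISC, against 6, 101 and 39 in WT-ISC. In EBs it held 720, 393 and 406 counts in SPEN-EB, against 7 and 12 in WT-EB. The other bins of spen held 143, 219 and 509 counts in SPEN-ISC, against 129, 222 and 128 in WT-ISC, and 454, 87 and 113 counts in SPEN-EB, against 54 and 66 in WT-EB. The study gives this exon as the one that the double-stranded RNA of the construct targets, so reads of the construct and of the gene cannot be told apart there, and the level of spen does not measure the knockdown. In each cell type the SPEN libraries lay above the WT libraries in bin E014, without overlap. Summed enterocyte markers were at 2861 to 2918 FPKM in SPEN-EB, against 280 to 335 FPKM in WT-EB, and overlapped between SPEN-ISC (1933 to 5363 FPKM) and WT-ISC (1747 to 3200 FPKM). Of the ISC markers, Dl and spdo summed to 1.71 to 15.7 FPKM in SPEN-ISC and 0.823 to 6.70 FPKM in WT-ISC, against 0.247 to 1.05 FPKM in SPEN-EB and 0.186 and 0.206 FPKM in WT-EB. In unscaled FPKM the EB markers, mostly E(spl) genes, did not sum higher in EBs than in ISCs of the same genotype. Their sums were 3189 to 5166 FPKM in SPEN-ISC and 1174 to 1748 FPKM in WT-ISC. In EBs they were 2231 to 2914 FPKM in SPEN-EB and 1053 and 1081 FPKM in WT-EB. Scaling divides each value by the factor of its library. These factors were 0.492 and 0.629 in WT-EB, against 0.716, 1.54 and 1.13 in WT-ISC, so scaling raises WT-EB relative to WT-ISC. A difference in scaled marker sums was not tested. Enteroendocrine markers summed to 125 to 2925 FPKM in SPEN-ISC and 1365 to 2497 FPKM in WT-ISC, against 4.11 to 12.3 FPKM in SPEN-EB and 17.4 and 24.3 FPKM in WT-EB.

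Of the 53 members, 47 reached 1 FPKM in at least 2 libraries and were tested in every comparison. The other 6 stayed below 1 FPKM in all 11 libraries. They were 4 paralogs of the cap-binding protein eIF-4E, the eIF4G paralog eIF4G2 and Ef1alpha100E, a paralog of the tRNA-delivering factor Ef1alpha48D. eIF4E-4 was listed at 0 in every library, and the highest value was 0.045 FPKM for eIF4E-5, 0.399 FPKM for eIF4E-6, 0.0279 FPKM for eIF4E-7, 0.522 FPKM for eIF4G2 and 0.190 FPKM for Ef1alpha100E. The cap-binding protein detected here was eIF-4E itself, at 81.1, 53.0 and 109 FPKM in SPEN-ISC, 26.8, 97.1 and 44.0 FPKM in WT-ISC, 66.6, 49.2 and 52.9 FPKM in SPEN-EB and 21.9 and 30.9 FPKM in WT-EB. eIF4G, the scaffold that eIF-4E binds, was detected at no more than 7.03 FPKM.

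A few factors dominated the class. eIF-5A, eIF-4a, Ef1beta and Ef1alpha48D together held 72.3 to 79.8% of the summed FPKM of the translation factors in each library. The most abundant member was eIF-5A, the hypusinated factor that helps the ribosome form difficult peptide bonds, at 3535 ± 440 FPKM in SPEN-ISC and 3967 ± 424 FPKM in WT-ISC (SD, n = 3 each), and 3724 ± 687 FPKM in SPEN-EB (n = 3) and 3644 ± 940 FPKM in WT-EB (n = 2). eIF-4a, the RNA helicase of the cap-binding complex, was at 2333 ± 335 FPKM in SPEN-ISC, 1599 ± 520 FPKM in WT-ISC, 2472 ± 459 FPKM in SPEN-EB and 1731 ± 116 FPKM in WT-EB. Ef1beta, which exchanges GDP for GTP on the factor that delivers tRNAs, was at 1644 ± 187 FPKM in SPEN-ISC, 2125 ± 235 FPKM in WT-ISC, 1690 ± 188 FPKM in SPEN-EB and 2404 ± 69.3 FPKM in WT-EB. The order of these 3 was not the same in every group, and the SDs of eIF-4a and Ef1beta overlap in WT-ISC. Ef1gamma, a structural subunit of the same exchange complex, averaged 731 to 961 FPKM over the 4 groups, and eIF-3p40, a subunit of eIF3, 563 to 711 FPKM.

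The transcripts of the subunits of a complex differed in FPKM, a value per length, within each of the initiation complexes. Within eIF2, the regulated subunit eIF-2alpha was at 204 to 288 FPKM over the 11 libraries, eIF-2gamma, which binds the initiator tRNA and GTP, at 46.7 to 92.9 FPKM, and eIF-2beta at 31.5 to 202 FPKM. eIF-2beta was at 164, 202 and 157 FPKM in SPEN-EB, against 47.7 and 76.7 FPKM in WT-EB, without overlap, and its scaled log2 fold change of 0.75 did not pass (limma adjusted p = 0.272). The 5 subunits of eIF2B spanned 7.63 to 76.1 FPKM, with eIF2B-epsilon, the catalytic subunit, at 7.63 to 17.4 FPKM and eIF2B-beta at 37.0 to 76.1 FPKM. In eIF3 the listed subunits ranged from eIF3-S10 at 11.8 to 84.8 FPKM to eIF-3p40 at 492 to 758 FPKM. Among the other initiation factors, eIF6, which keeps free large subunits from joining, was at 51.5 to 163 FPKM and eIF5B, which joins the subunits, at 3.08 to 10.5 FPKM.

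The synthetases were far less abundant. Aats-asp, which charges tRNAs with aspartate, led them with 178 ± 5.78 FPKM in SPEN-ISC, 152 ± 48.2 FPKM in WT-ISC, 243 ± 32.7 FPKM in SPEN-EB and 121 ± 13.2 FPKM in WT-EB. Aats-thr, the threonine enzyme, followed at 113, 81.2 and 89.3 FPKM in SPEN-ISC, 54.4, 73.7 and 98.4 FPKM in WT-ISC, 80.8, 109 and 93.6 FPKM in SPEN-EB and 48.1 and 51.4 FPKM in WT-EB. In EBs the SPEN-EB libraries of both genes lay above both WT-EB libraries in FPKM but not in scaled values, with scaled log2 fold changes of 0.23 for Aats-asp and 0.15 for Aats-thr (limma adjusted p = 0.742 and 0.844), and in ISCs the groups overlapped. Aats-tyr, Aats-lys, Aats-asn and Aats-ala averaged between 27.3 and 79.6 FPKM over the groups. The other 9 cytosolic enzymes had means over the 11 libraries from 34.8 FPKM for Aats-his down to 3.55 FPKM for Aats-glupro, and the mitochondrial ones from 19.0 FPKM for Aats-phe down to 3.05 FPKM for Aats-ala-m. The summed FPKM of the 6 mitochondrial synthetases was 29.1 to 67.8 in the 11 libraries, below that of the 15 cytosolic ones, at 366 to 781.

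In EBs, 3 of the 47 tested members passed the test under spen RNAi, 1 higher and 2 lower in SPEN-EB, at an adjusted p under 0.05. Over all genes tested, 6.01% passed, 3.70% higher and 2.31% lower, so the members' count is near that of the genes at large. The 3 were Aats-ser and Ef1beta, which fell, and Aats-val, which rose, and they came from 3 different roles. Without scaling 13 members passed, 12 higher and 1 lower, where 15.5% of all genes tested were higher and 0.653% lower. edgeR on counts called 1 member, Aats-ser, beside 0.981% of all genes it tested, and DESeq2 called 4, the 3 above and Aats-glupro, beside 6.04%. At an unadjusted p under 0.05 there were 7 members, where 22.3% of all genes tested passed. Unless edgeR or DESeq2 is named, gene tests are limma on log2(FPKM + 0.5), two-sided, with Benjamini-Hochberg adjustment over all genes tested. The pseudocount makes the fold changes of low genes too small. In these bulk samples, fewer cells of a type and less RNA of a gene per cell cannot be told apart.

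Aats-ser (FBgn0021750, current symbol SerRS-m), which charges the serine tRNAs of the mitochondria, showed the lowest fold change of the members in both cell types. Its level was 1.77, 1.57 and 1.79 FPKM in SPEN-EB, against 6.49 and 7.89 FPKM in WT-EB. It was 2.45, 1.57 and 1.70 FPKM in SPEN-ISC, against 6.71, 6.50 and 8.75 FPKM in WT-ISC. All 6 SPEN libraries thus lay below all 5 WT libraries, with no overlap in either cell type. In EBs the log2 fold change was -2.46 (SE 0.378, limma adjusted p = 5.2e-05). In ISCs it was -1.92 (SE 0.433), which missed the threshold after adjustment (limma adjusted p = 0.120). The difference between these changes was -0.75 (SE 0.516, limma adjusted p = 0.976).

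The counts behind Aats-ser are low. Its only exon bin held 61, 54 and 65 counts in SPEN-EB, against 231 and 274 in WT-EB, and 88, 52 and 58 in SPEN-ISC, against 227, 219 and 296 in WT-ISC. The gene lies at 3R:11166407-11167939 on the plus strand (BDGP5). It sits in the gap between the exon bins of CG6218, which runs along the minus strand at 3R:11163630-11168978, and no bin of the one overlaps a bin of the other. CG6218 did not pass in EBs (-0.22, limma adjusted p = 0.754), nor did any other gene tested within 15000 bases of Aats-ser. The cytosolic seryl-tRNA synthetase, listed as CG17259 and so outside the naming rule, was at 86.7, 100.0 and 86.5 FPKM in SPEN-EB, against 50.4 and 52.2 FPKM in WT-EB, with a scaled log2 fold change of 0.06.

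Aats-val (FBgn0027079, current symbol ValRS), which charges valine tRNAs, was the member that rose in EBs. Its level was 12.7, 11.5 and 10.9 FPKM in SPEN-EB, against 2.35 and 2.85 FPKM in WT-EB, with every SPEN-EB library above both WT-EB libraries. The log2 fold change was 1.29 (SE 0.368, limma adjusted p = 0.0306). In ISCs the groups overlapped, at 7.01, 5.01 and 9.65 FPKM in SPEN-ISC, against 1.25, 8.18 and 13.9 FPKM in WT-ISC, with an 11.1-fold spread between the 3 WT-ISC libraries. The difference between the EB and the ISC changes, 1.08 (SE 0.699), was the highest of the members and did not pass (limma adjusted p = 0.976).

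Ef1beta (FBgn0028737) fell in EBs, to 1478, 1834 and 1759 FPKM in SPEN-EB, against 2355 and 2453 FPKM in WT-EB. The log2 fold change after scaling was -1.28 (SE 0.388, limma adjusted p = 0.0437). In ISCs the FPKM were also apart, at 1860, 1544 and 1528 in SPEN-ISC, against 1926, 2066 and 2385 in WT-ISC. There the scaled values overlapped and the change of -0.61 (SE 0.495) did not pass (limma adjusted p = 1.00).

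The calls of Aats-val and Ef1beta were not kept under every setting. Each was lost in 8 of 14 alternatives, among them edgeR on counts (adjusted p = 0.0829 for Aats-val and 0.142 for Ef1beta) and the fit without either WT-EB library, and the call of Ef1beta was also lost without scaling (log2 fold change -0.51, limma adjusted p = 0.0961). DESeq2 kept both. The direction was the same in all 14, with log2 fold changes between 1.02 and 1.98 for Aats-val and between -1.65 and -0.51 for Ef1beta. The call of Aats-ser in EBs was kept in all 14, with log2 fold changes between -2.87 and -1.80. Summed enterocyte markers, the number of detected genes and the scaling factors differ between SPEN-EB and WT-EB without overlap, and their part in these 3 changes was not tested.

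**Figure D1:**
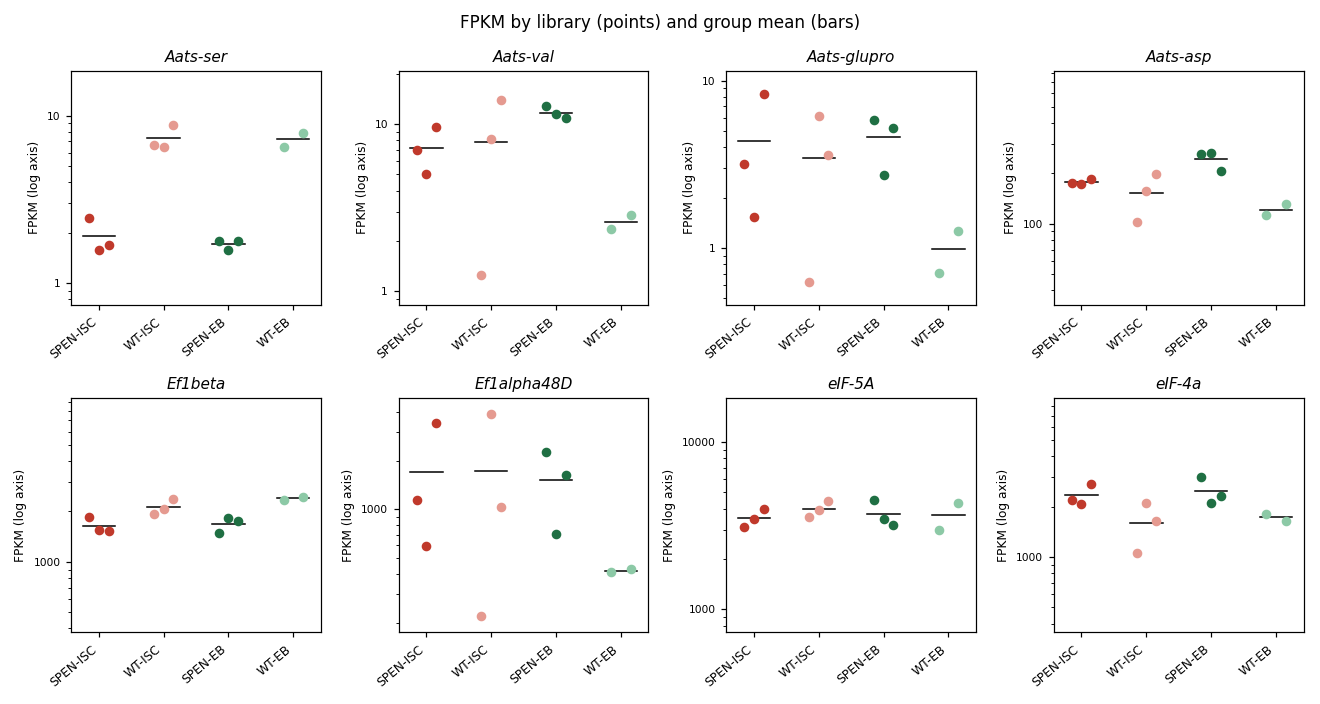
FPKM on a log axis of 8 members in each library (points) and group mean (bars), by group. The 6 SPEN libraries of Aats-ser sit between 1.57 and 2.45 FPKM, all below the WT libraries, while Ef1alpha48D spans 219 to 3903 FPKM within WT-ISC alone.

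The members next in order in EBs did not pass. Aats-glupro, a synthetase that charges both glutamate and proline tRNAs, was at 5.81, 2.73 and 5.18 FPKM in SPEN-EB, against 0.710 and 1.26 FPKM in WT-EB (log2 fold change 1.15, SE 0.388, limma adjusted p = 0.0706). Aats-ile was at 14.2, 7.59 and 10.6 FPKM in SPEN-EB, against 2.54 and 3.39 FPKM in WT-EB (0.98, limma adjusted p = 0.105). Ef1alpha48D, the factor that brings charged tRNAs to the ribosome, was at 2255, 707 and 1632 FPKM in SPEN-EB, against 409 and 431 FPKM in WT-EB (0.95, limma adjusted p = 0.160). In each of these 3 the groups did not overlap. At the other end, eIF-5A had a scaled log2 fold change of -0.73 and Aats-tyr of -0.72, with limma adjusted p of 0.256 and 0.279. Their FPKM overlapped between SPEN-EB and WT-EB, and without scaling the values are 0.040 and 0.047.

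The values of the groups in EBs separated for many members, as they did for many genes. SPEN-EB and WT-EB did not overlap in FPKM for 31 of the 47 members, beside 51.9% of all genes tested, and did not overlap in scaled values for 25, beside 47.0%. By subclass, the median log2 fold change was -0.12 for the 26 factors, with 13 above 0, and 0.15 for the 21 synthetases, with 13 above 0. The median over all 5974 genes was -0.02. Without scaling these medians were 0.62, 0.91 and 0.66, and without SPEN-EB replicate 2 the first 2 were -0.34 and -0.14. The 15 cytosolic synthetases had a median of 0.23, with 11 above 0. The 6 mitochondrial synthetases that the rule lists had a median of -0.35, with 2 above 0. The 5 eIF2B subunits had a median of -0.36, with 1 above 0. Without scaling both medians turn above 0, to 0.35 and 0.39, and stay below the median gene. Mitochondrial synthetases named otherwise mostly lay above 0: AspRS-m, AsnRS-m, ArgRS-m, CysRS-m, IleRS-m, TrpRS-m and GluRS-m at 0.17 to 0.46. Below 0 were ValRS-m at -0.14 and TyrRS-m at -0.69, so the mitochondrial median holds for the listed 6 only. The 5 listed subunits of eIF3, the scaffold on the small ribosomal subunit, had a median of 0.14, with 3 above 0. Subunits of eIF3 named otherwise lay mostly lower. They were eIF3f1 at -1.17, eIF3e at -0.79, eIF3i at -0.78, eIF3g1 at -0.73, eIF3k at -0.71 and eIF3m at -0.70. eIF3l was at -0.0035 and eIF3j at 0.30, and the lowest, eIF3f1, did not pass (limma adjusted p = 0.0698). These are descriptions of lists, and no difference between the lists was tested.

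In summed FPKM the synthetases were at 752, 817 and 828 in SPEN-EB, against 431 and 491 in WT-EB, which did not overlap. The same sum was 790, 590 and 759 in SPEN-ISC, against 401, 644 and 772 in WT-ISC, which did. The factors summed to 14373, 10757 and 12304 FPKM in SPEN-EB, against 9849 and 11201 FPKM in WT-EB, with overlap. These sums are not scaled and so carry the shift of the median gene given above.

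**Figure D2:**
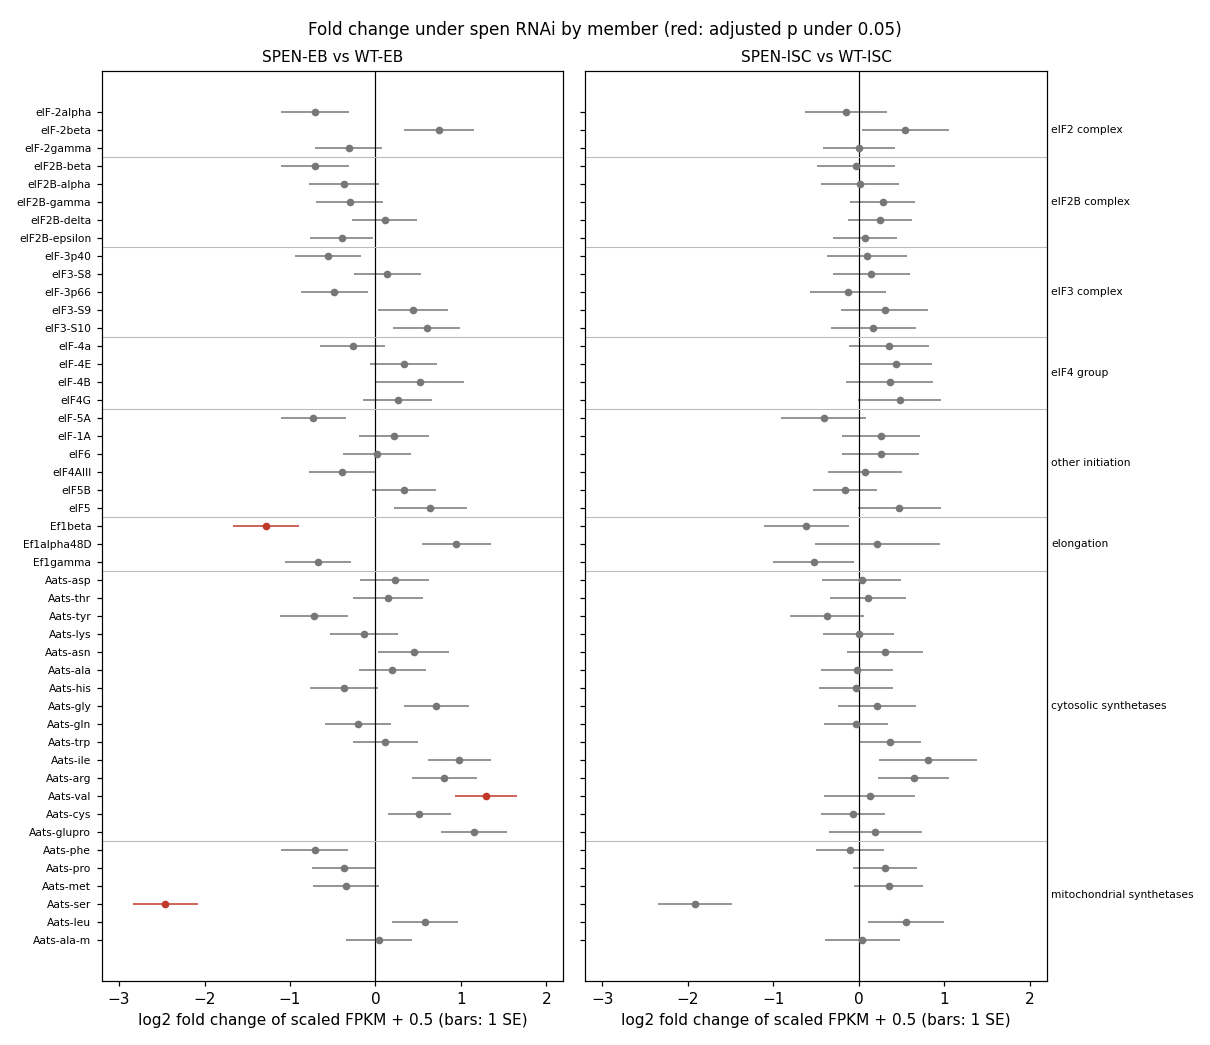
Log2 fold change of scaled FPKM (x axis, bars 1 SE) of the 47 tested members under spen RNAi, by role, in EBs (left) and ISCs (right). The 3 members that passed in EBs are in red: Aats-ser at -2.46, Ef1beta at -1.28 and Aats-val at 1.29. None passed in ISCs.

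In ISCs, 0 of the 47 members passed under spen RNAi, where 0.110% of all genes tested passed. At an unadjusted p under 0.05 there was 1 member, Aats-ser, where 3.36% of all genes did. edgeR on counts called 0 members and DESeq2 called 1, Aats-ser (adjusted p = 0.00416). The groups did not overlap in FPKM for 6 members, beside 7.99% of all genes tested, and in scaled values for 3, beside 5.70%. After Aats-ser, the lowest log2 fold changes were -0.61 for Ef1beta, -0.53 for Ef1gamma and -0.41 for eIF-5A. The highest were 0.81 for Aats-ile, 0.64 for Aats-arg, 0.55 for the mitochondrial Aats-leu and 0.54 for eIF-2beta, a subunit of eIF2. All 7 had a limma adjusted p of 1.00, and the groups' FPKM overlapped for Aats-ile (14.3, 5.34 and 30.8 in SPEN-ISC, against 1.73, 20.4 and 6.53 in WT-ISC). The medians were 0.16 for the factors and 0.11 for the synthetases, with 0.05 over all genes. Without scaling they were 0.40 and 0.32, beside 0.26 over all genes. With a library left out the median of the factors ran from 0.075 to 0.20 and that of the synthetases from -0.0005 to 0.28.

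The change under spen RNAi in EBs was then set against that in ISCs in a fit of all 11 libraries. For this difference 0 members passed, with 0% of all genes, and 0 members had an unadjusted p under 0.05, where 1.69% of all 7027 genes did. edgeR and DESeq2 also called 0 members. The highest values were 1.08 for Aats-val, 0.91 for Aats-glupro, 0.61 for Ef1alpha48D and 0.48 for Aats-cys. The lowest were -0.81 for Aats-met and -0.79 for Aats-pro, both mitochondrial, -0.79 for eIF2B-beta and -0.79 for Ef1beta. The lists' medians were -0.31 for the factors and -0.08 for the synthetases, beside -0.14 over all genes, and turned to 0.25 and 0.48 without scaling. The 6 mitochondrial synthetases listed by the rule were all below 0 after scaling, where 41.4% of all genes were above 0. Above 0 were also 0 of 72 mitochondrial and 3 of 86 cytoplasmic ribosomal proteins. Of translation genes outside the naming rule, 5 of 41 found by current symbol and 11 of 20 in a hand-set list were above 0. Mitochondrial synthetases named otherwise are not counted separately here.

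Between the cell types in wild type, 0 of 47 members differed (WT-ISC over WT-EB, adjusted p under 0.05), where 3.41% of all genes tested did. None reached an unadjusted p under 0.05, where 13.4% of all genes did, and edgeR and DESeq2 called 0. The lowest log2 ratios were -0.97 for Ef1beta, -0.95 for eIF-4a, -0.88 for eIF-3p40 and -0.78 for Aats-tyr. The highest were 0.77 for eIF-4B, which stimulates the helicase eIF-4a, 0.73 for eIF5, which triggers GTP hydrolysis by eIF2, 0.63 for Aats-arg and 0.54 for eIF4G. The limma adjusted p of these 8 lay between 0.432 and 0.576. eIF5 shows the spread behind them: it was at 2.14, 11.3 and 4.58 FPKM in WT-ISC, against 0.747 and 3.03 FPKM in WT-EB.

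The members lay lower in WT-ISC than in WT-EB relative to the median gene, without passing singly. The median log2 ratio was -0.44 for the factors, with 8 of 26 above 0, and -0.38 for the synthetases, with 6 of 21 above 0, where the median gene was at -0.03. This was not particular to the members. The median was -0.995 for cytoplasmic ribosomal proteins (1 of 86 above 0) and -0.70 for mitochondrial ones (1 of 72). Translation genes outside the naming rule were at -0.48 when found by current symbol (6 of 40) and at 0.15 in a hand-set list (11 of 19). After scaling, all listed subunits of eIF2, eIF2B and eIF3 and all listed mitochondrial synthetases were below 0. Among mitochondrial synthetases named otherwise, ArgRS-m (0.06) and AspRS-m (0.54) lay above 0 and those remaining between -0.91 and -0.03. Of the eIF4 group, 3 of 4 were above 0 (median 0.33), as were 4 of 6 other initiation factors (median 0.12), 1 of 3 elongation factors (median -0.70) and 6 of 15 cytosolic synthetases (median -0.25), beside 48.4% of all genes tested. The scaled values of WT-ISC and WT-EB did not overlap for 24 members, beside 38.1% of all genes tested, while the FPKM did not overlap for only 7, beside 42.0%. The direction of the members depends on the scaling. Without it the medians of the factors and synthetases are above 0, at 0.34 and 0.39, below the median gene at 0.66. WT-ISC replicate 1 also weighs on this comparison: without it 14 members passed, 2 higher and 12 lower in WT-ISC, where 13.4% of all genes tested were higher and 20.1% lower.

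Under spen RNAi, 0 of 47 members differed between SPEN-ISC and SPEN-EB, where 0.707% of all genes tested did. At an unadjusted p under 0.05 there was 1 member, where 6.17% of all genes passed, and edgeR and DESeq2 called 0. It was Aats-val, at -1.02 (SE 0.333, limma adjusted p = 0.330), with 7.01, 5.01 and 9.65 FPKM in SPEN-ISC, against 12.7, 11.5 and 10.9 FPKM in SPEN-EB, which do not overlap. Other low log2 ratios were -0.78 for Aats-asp, -0.75 for eIF3-S8, a core subunit of eIF3, and -0.71 for Aats-ala. The highest were 0.72 for eIF4G, 0.54 for eIF4AIII, a core protein of the exon junction complex, 0.53 for eIF-4B and 0.49 for eIF5. The FPKM did not overlap for 5 members, beside 10.7% of all genes, and the scaled values for 7, beside 9.51%. The medians were -0.28 for the factors and -0.38 for the synthetases, beside -0.06 over all genes, and 0.05 and -0.05 without scaling, beside 0.25 over all genes. The comparisons share their libraries, so these medians are not independent of those given for wild type or for the RNAi.

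**Figure D3:**
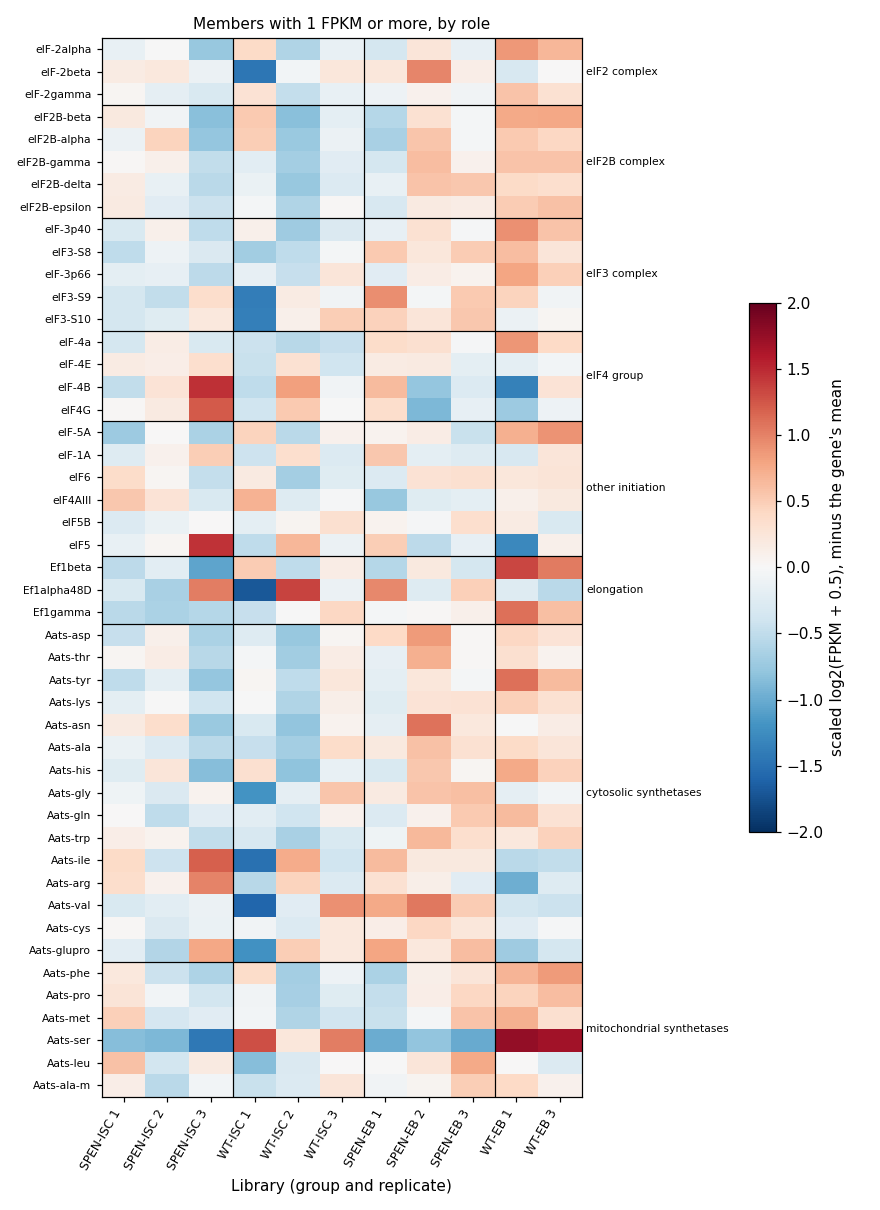
Scaled log2(FPKM + 0.5) minus the gene's mean, in color, for the 47 members with 1 FPKM or more (rows, by role) in the 11 libraries (columns, by group). Aats-ser is low in all 6 SPEN libraries, and Ef1alpha48D, with an SD of 1.00 within groups, varies most between replicates.

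Members differed in how far replicates of one group lay apart. The SD of scaled log2 values within groups had a median of 0.385 over the 47 members, 0.382 for factors and 0.404 for synthetases, beside 0.486 over the 7027 genes at 1 FPKM or more in at least 2 libraries. It was highest for Ef1alpha48D, at 1.00, and lowest for Aats-cys, at 0.182. Ef1alpha48D was at 1137, 597 and 3409 FPKM in SPEN-ISC, against 219, 3903 and 1039 FPKM in WT-ISC, so that 1 WT-ISC library held 17.8 times the level of another. Length was a weak guide to the spread: the median SD was 0.413 for the 23 longer members and 0.376 for the 24 shorter ones.

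The libraries with many detected genes were the high ones for some members. WT-ISC replicate 2, SPEN-ISC replicate 3 and SPEN-EB replicate 1, with the most genes at 1 FPKM, held the 3 highest FPKM of 7 members, which was 14.9% of the 47, beside 18.4% of all genes. The 7 were the factors Ef1alpha48D, eIF-1A, eIF-4B, eIF3-S9, eIF4G and eIF5, and the synthetase Aats-glupro. By contrast eIF-2alpha, the regulated subunit of eIF2, stayed between 204 and 288 FPKM in all 11 libraries. That holds before scaling: the SD of its scaled values within groups was 0.379, near the members' median of 0.385.

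Over the 11 libraries, the scaled values of Ef1beta were most like those of eIF-5A, the most abundant factor, with a Pearson r of 0.90. Aats-tyr and eIF-2alpha followed, both at 0.87, then eIF-3p40 at 0.84 and Aats-his at 0.79. The lowest r were those of Aats-arg, at -0.75, and Aats-ile, at -0.72. The libraries share their scaling factor and depth, and these values are given as a description only.

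**Figure D4:**
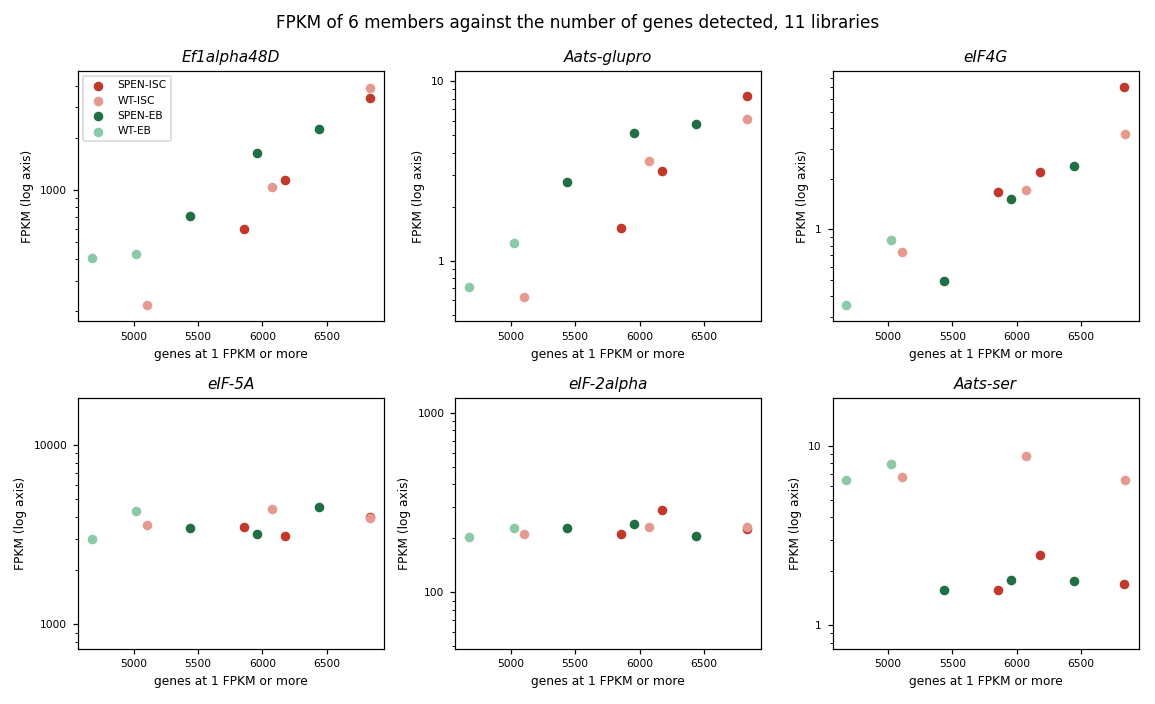
FPKM on a log axis of 6 members against the number of genes at 1 FPKM or more, 1 point a library, colored by group. Ef1alpha48D, Aats-glupro and eIF4G are highest in the libraries with the most detected genes. The unscaled FPKM of eIF-5A and eIF-2alpha stay within a narrow range, and Aats-ser separates the SPEN from the WT libraries instead.

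Genes of translation that the naming rule misses were counted for comparison, from lists set by hand. Of 20 such genes, among them regulators, release factors and eIF3 subunits under other names, 17 were tested in EBs, and 1 passed: RpLP0, the ribosomal stalk protein on which the elongation factors act, at -1.28 (limma adjusted p = 0.0458). Elongation factor eEF2, listed as Ef2b, was at 2211, 1435 and 2552 FPKM in SPEN-EB, against 1186 and 1096 FPKM in WT-EB, with a scaled log2 fold change of 0.05. Of 40 tested genes found by their current translation factor or synthetase symbol, which were chosen after values were seen, 1 passed, the methionine enzyme MetRS, listed as CG15100, at 1.21 (limma adjusted p = 0.0456). The cytoplasmic ribosomal proteins had a median of -1.05 in EBs over 86 tested genes, 15 lower and 1 higher in SPEN-EB, and -0.40 in ISCs with 0 called. The mitochondrial ribosomal proteins had a median of -0.85 in EBs, with 4 of 72 lower. Without scaling the cytoplasmic ones had a median of -0.28 in EBs, with 15 lower and 3 higher, and the mitochondrial ones of -0.10, with 0 lower, beside 0.66 for all genes. The medians of the listed translation factors and synthetases, at -0.12 and 0.15, were closer to that of all genes, at -0.02. That of the 40 genes found by current symbol was -0.25, with 15 above 0, or 37.5% beside 49.3% of all genes tested. The 17 tested genes of the hand-set list had a median of 0.30, with 9 above 0. The difference between these lists was not tested.

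Exon usage was tested as the share of each exon bin in the counts of its gene. Of the bins tested, 239 belonged to 44 members in EBs, and 0 of them passed under spen RNAi, where 0.0829% of all bins did. In ISCs 0 of 234 member bins passed, where 0.0241% of all bins did. At an unadjusted p under 0.05 there were 16 member bins in EBs, or 6.69%, beside 5.80% of all bins, and 7 in ISCs, or 2.99%, beside 3.50%. Between WT-ISC and WT-EB 1 of 231 member bins passed, where 0.0361% of all bins did, and between SPEN-ISC and SPEN-EB, a comparison added after the data were seen, 0 of 239 passed, where 0.00353% of all bins did.

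The bin that passed was bin E002 of eIF-4a (FBgn0001942), an exon of 228 bases at 2L:5982594-5982821 that lies between its first bin and the bins that hold most of its counts. It took 0.247, 0.261 and 0.255% of the gene's counts in WT-ISC, against 0.0639 and 0.0743% in WT-EB, so that the groups did not overlap. The log2 ratio was 1.88 (SE 0.130, limma adjusted p = 0.000196), and it passed in all 8 alternatives, between 1.67 and 1.99. The counts behind it were 182, 374 and 287 in WT-ISC, against 84 and 87 in WT-EB. In the RNAi libraries the share was 0.379, 0.354 and 0.246% in SPEN-ISC, against 0.181, 0.190 and 0.0782% in SPEN-EB, again without overlap, with a log2 ratio of 1.14 (SE 0.344) that did not pass (limma adjusted p = 1.00). Under spen RNAi the ratio was 1.08 (SE 0.426, limma adjusted p = 0.843) in EBs and 0.34 (SE 0.156, limma adjusted p = 1.00) in ISCs. The bin is thus a small part of a gene whose total did not pass in any comparison.

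**Figure D5:**
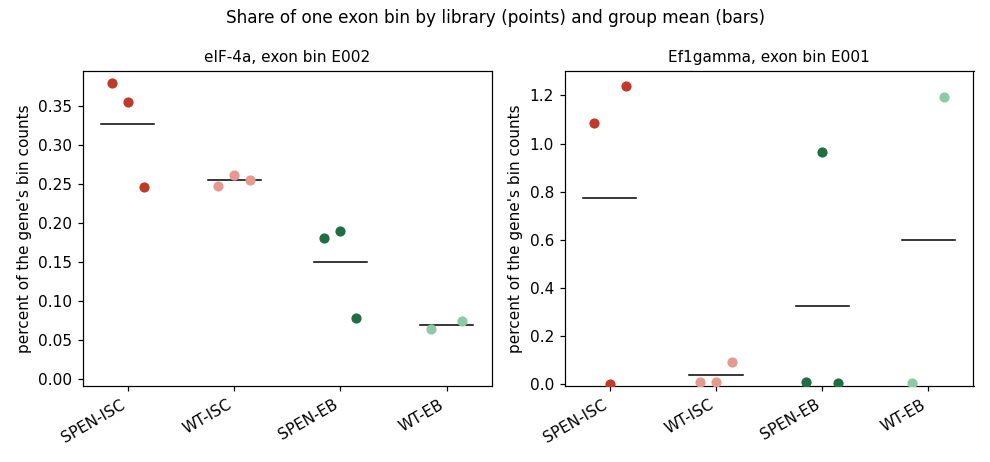
Share of 1 exon bin in its gene's counts (percent) by library (points) and group mean (bars). Bin E002 of eIF-4a lies at 0.247 to 0.261% in WT-ISC and at 0.0639 and 0.0743% in WT-EB, and bin E001 of Ef1gamma takes 0.965 to 1.24% in 4 libraries of 3 groups and at most 0.0911% in the other 7.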

How the data were processed

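Paired reads were aligned by the authors with TopHat2 2.0.6 (submitters' notes) to the BDGP5 genome and counted on genes and exon bins in a strand-aware mode. The study's methods give capture of poly(A) RNA on oligo-dT beads, and the labels name an rRNA removal kit beside it. The authors deposited gene levels as FPKM, whose formula is not given in the sources used here, read counts per exon bin, and bin positions. Deposited fold changes and p-values of the authors' own tests were not used, nor were 16 per-sample columns repeated in those tables and their group means. The authors left out 1 WT-EB library because it did not group with the other 2 in a principal component analysis. That choice rests on the expression values, so the spread within WT-EB may be too small. This bears on every p-value and every count of groups without overlap that uses WT-EB.

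Groups follow the labels. Scaling factors were trimmed means of log ratios (30% of log ratios and 5% of mean levels trimmed). The scaled log2(FPKM + 0.5) entered limma 3.58.1 in R 4.3.3, with a variance trend, a robust prior and only the libraries compared. A gene was tested if it reached 1 FPKM in a number of libraries equal to the size of the smaller group. Exon bins with at least 10 counts (15 in total) entered limma as log2 ratios to the rest of their gene (offset 0.5). A threshold of 0.05 was used. On simulated data the bin test called somewhat more false bins than this threshold implies. Alternatives were other pseudocounts, no filter, no scaling, median-of-ratios factors, edgeR 4.0.16 and DESeq2 1.42.0 on summed bin counts, a replicate block, all 11 libraries, each library left out and, for bins, diffSplice and a higher minimum. Figures were drawn with matplotlib 3.10.9.

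In each comparison, every member called and the 4 highest and 4 lowest log2 fold changes are named, with the 6 most abundant members of each subclass, the paralogs of eIF4E and Ef1alpha, and every member bin called. Other genes and bins named were chosen after their values were seen. The members and lists were chosen with earlier results of these data known. Current symbols came from a RefSeq gene table of release 6 (50 members by ID, 3 by synonym), and its coordinates were not used. No sequences were analysed here, so the planned motif counts were not run. No libraries were found to be duplicates.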

Additional observations from a re-analysis of the deposited data

Results flagged for a closer look

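The scaled values of eIF-4a, the helicase of the cap-binding complex, moved in opposite directions in the 2 cell types: all SPEN-EB libraries lay below both WT-EB libraries, and all SPEN-ISC libraries lay above all WT-ISC libraries. The gene was picked for this pattern, and the share of all genes that show it was not computed. Scaled values did not overlap for 47.0% of all genes tested in EBs and for 5.70% in ISCs. Its log2 fold changes were -0.27 in EBs (limma adjusted p = 0.682) and 0.35 in ISCs, and neither passed. The difference between the EB and the ISC change was -0.73 on the log2 scale and did not pass (limma adjusted p = 0.976). Before scaling the pattern is absent, since eIF-4a was at 2989, 2112 and 2315 FPKM in SPEN-EB, against 1813 and 1649 FPKM in WT-EB.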

How the results depend on the processing

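Member calls in EBs were 1 with no filter, with edgeR or with all 11 libraries in the fit, beside 0.359%, 0.981% and 0.770% of all genes tested. They were 4 with DESeq2, beside 6.04%, and 13 without scaling (12 higher, 1 lower), beside 16.2%. Without SPEN-EB replicate 1, 2 or 3 they were 1, 5 and 2, beside 4.53%, 17.5% and 8.59% of all genes tested. No count is given for the fits that leave 1 WT-EB library. In ISCs the call was 1, always Aats-ser, with DESeq2 or all 11 libraries, and 0 to 1 with a library left out (1 without WT-ISC replicate 2). Between WT-ISC and WT-EB it was 0 to 14 (14 without WT-ISC replicate 1, where 33.5% of all genes tested passed), and between SPEN-ISC and SPEN-EB and for the difference between cell types it was 0 in the alternatives run. Whether the replicate numbers pair the libraries could not be decided with 2 or 3 libraries a group. The correlations ran from -0.63 to 0.62 for same-numbered libraries and from -0.72 to 0.70 for the others. With a replicate block there were 4 member calls in EBs (Aats-val was lost, and Aats-glupro and Ef1alpha48D passed), beside 11.7% of all genes tested. There was 1 in ISCs, beside 0.565% of all genes. With the block 4 member exon bins passed in EBs. Member bins called were 0 to 2 in EBs, 0 to 1 in ISCs and 1 to 3 between WT-ISC and WT-EB with a library left out. The share of all bins that passed with the block or with a library left out was not computed. These bin counts therefore cannot be read as a result about the members. Without scaling the median gene moved to 0.66 in EBs, 0.26 in ISCs, 0.66 for WT-ISC over WT-EB and 0.25 for SPEN-ISC over SPEN-EB. The medians of factors and synthetases then moved to 0.62 and 0.91 in EBs, 0.34 and 0.39 in wild type, and 0.05 and -0.05 for SPEN-ISC over SPEN-EB, and eIF-5A (0.040) and Aats-tyr (0.047) in EBs and Aats-tyr (0.0030) in wild type changed sign. With a library left out, signs also turned for eIF-2beta in ISCs (-0.0071 to 0.86), eIF5 (-0.035 to 1.29) and eIF-4B (-0.12 to 1.43) in wild type, and Ef1alpha48D in the difference (-0.14 to 1.38). The causes were not tested. The 6 members below 1 FPKM were not tested.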

Other observations

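A first bin of Ef1gamma, the structural subunit of the exchange complex of elongation, followed single libraries and not the groups. Bin E001, of 35 bases at 3R:25045888-25045922, took 1.09, 0 and 1.24% of the counts of Ef1gamma in SPEN-ISC, against 0.010, 0.0086 and 0.0911% in WT-ISC. It took 0.0091, 0.965 and 0.0039% in SPEN-EB, against 0.0046 and 1.19% in WT-EB. The counts were 423, 0 and 542 in SPEN-ISC, 2, 5 and 52 in WT-ISC, 4, 319 and 2 in SPEN-EB, and 2 and 448 in WT-EB. In the 4 libraries where it was high, the neighbouring bin E003 took 0.333 to 0.488% of the counts of Ef1gamma, against 1.27 to 1.58% in the others. The bin was singled out after its values were seen, and the labels hold no feature that the 4 libraries share.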
